A study of Mus musculus with 6 samples.

Results

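The genes that carry pyruvate into the mitochondrion and burn it in the tricarboxylic acid (TCA) cycle were followed in muscle of mice in which the genes of the insulin-signalling kinases Akt1 and Akt2 were targeted in muscle fibres. The 34 genes were taken by symbol from the 24411 genes of the deposited count table, and all 34 passed the filter on low counts that left 12892 genes to test. They comprise 2 subunits of the pyruvate carrier, 5 genes of the pyruvate dehydrogenase (PDH) complex, 4 PDH kinases, 3 genes of the PDH phosphatases, pyruvate carboxylase, 12 genes of TCA cycle enzymes, 4 subunits of complex II and 3 enzymes of the malate-aspartate shuttle. RNA came from the extensor digitorum longus (EDL), a fast-twitch muscle of the lower hindlimb, of mice aged 50 weeks. The mAktDKO group held 3 mice with floxed Akt1 and Akt2 alleles and a Cre knocked into the Mlc1f locus, a gene of fast fibres, so the deletion is aimed at these fibres and not at the other cells of the muscle. The control floxed group held 3 mice with the same floxed alleles, and both groups were on the C57BL/6J background. The methods of the study describe male mice unless stated otherwise. In the table the control mice carry the numbers 2 to 4, and these numbers are used here. CPM values are the reads of a gene relative to all reads of the mouse, with the libraries scaled by the TMM method.

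Pyruvate made by glycolysis enters the mitochondrial matrix through a carrier built from Mpc1 and Mpc2. The PDH complex turns it into acetyl-CoA, PDH kinases switch the complex off by phosphorylation, and PDH phosphatases switch it on again. The TCA cycle oxidises the acetyl group, and complex II (succinate dehydrogenase) is both an enzyme of the cycle and an entry point of the respiratory chain. In skeletal muscle Pdk4 is the isoform known to respond to fasting and insulin, and Akt is known to restrain the FoxO factors that act on its promoter.

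The targeted genes were examined first. Akt2 had 51.3, 49.1 and 52.7 CPM in mAktDKO muscle and 172, 133 and 143 CPM in control muscle, a log2 fold change of -1.55 (standard error, SE, 0.11, adjusted p = 0.000923 in edgeR's quasi-likelihood fit). Akt1 had 58.9, 56.8 and 51.3 CPM against 66.4, 65.5 and 66.5 CPM, a log2 fold change of -0.25 (adjusted p = 0.114 in edgeR). The counts are per gene and whole muscle was used, so RNA from cells without Cre and from the undeleted part of a gene is included. Total counts were between 13738795 and 15445523 per mouse, at which 3 counts correspond to 0.18 to 0.227 CPM. These floors cover counting error only. No column was a copy of another, since the chi-square per degree of freedom between mice was at least 7.64. Control mouse 2 stood apart from the other control mice, with 9170 CPM of the fast myosin gene Myh2 against 4437 and 4621 CPM, and with 5894 CPM of the collagen gene Col1a1 against 12340 and 14920 CPM. Where leaving out 1 mouse moved the log2 fold change of a named gene of the pathway, or a log2 ratio, by more than 1.5 times, the mouse and the value without it, or the range over the mice left out, are given with the result.

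The 34 genes as a group lay lower in the mAktDKO muscles. Their summed level was 9107, 8855 and 9241 CPM in mAktDKO muscle and 11026, 11083 and 9817 CPM in control muscle, so the groups did not overlap. Of the 34 log2 fold changes 27 were below 0 and 7 above, and their median was -0.22 against 0.017 over all tested genes, of which 47.5% were below 0. With edgeR's quasi-likelihood test and Benjamini-Hochberg adjustment over all 12892 genes, 0 of the 34 passed the adjusted p of 0.01 that the study used, a level that 0.0233% of all genes passed. At an adjusted p of 0.05, 2 genes fell, Mpc2 and Pdhx, against a background of 0.915% of genes, and 0 rose against 0.264%. At an unadjusted p of 0.05, 16 of the 34 were lower against 13.1% of all genes, and 0 were higher against 11.4%. In 19 genes the highest mAktDKO value was under the lowest control value, which held for 16.6% of all genes, and in 0 genes the lowest mAktDKO value was over the highest control value, which held for 14.6%.

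The study's own tool, DESeq2, placed 8 of the 34 below an adjusted p of 0.01, and all 8 were lower, against 2.61% of all genes with an adjusted p. They were Mpc2 (0.000152), Pdhx (0.000881), Pdpr (0.00847), Idh3b (0.00687), Fh1 (0.00635), Mdh2 (0.00238), Sdhb (0.00222) and Mdh1 (0.000149). In edgeR the last 6 of these had adjusted p-values between 0.0506 and 0.0684. The call thus depends on the tool, while the direction of these genes was the same in both. After TMM scaling 27 of the 34 were lower, and 22 when CPM was taken over library totals, a scaling that moved all genes alike and the median of all genes to 0.16.

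**Figure D1:**
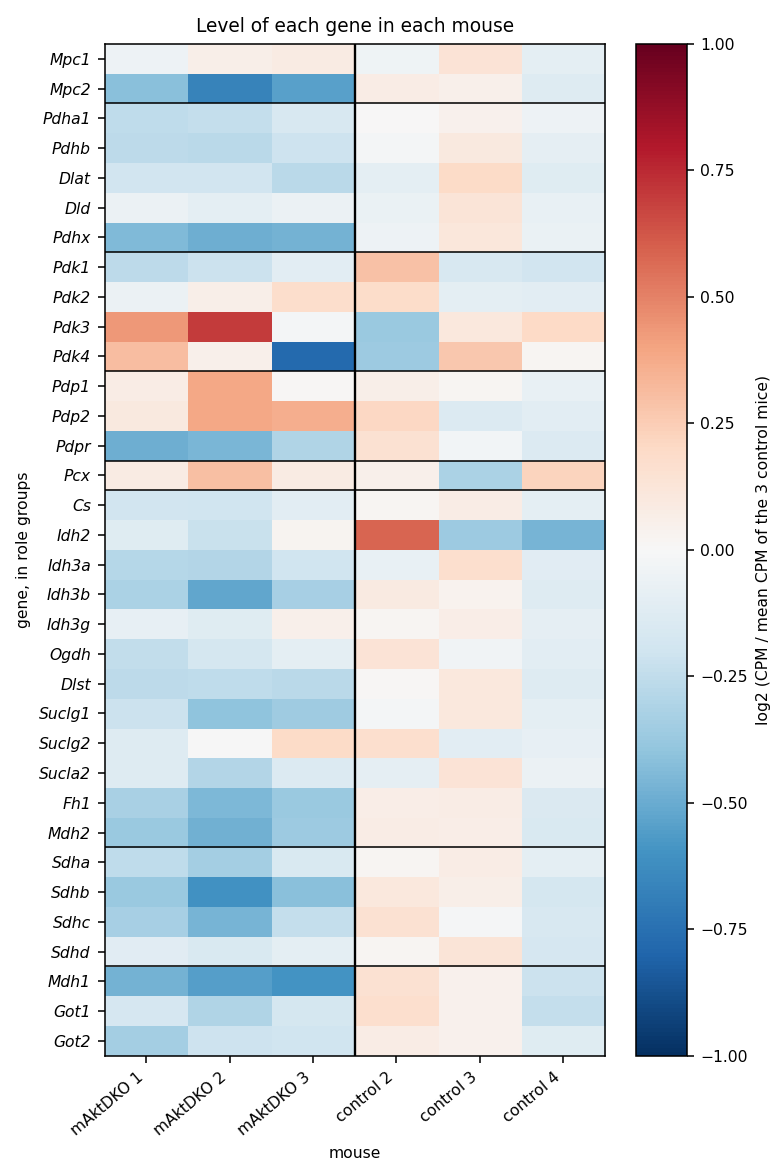
Heat map of the 34 genes (rows, in role groups separated by lines) in the 6 mice (columns). The colour is the log2 ratio of the CPM to the mean CPM of the 3 control mice, so blue is below that mean. Between 26 and 29 of the 34 genes were below the control mean in each mAktDKO mouse, and control mouse 4, with 31 below it, was the lowest of the control mice.

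The spread between mice was small for most of these genes. The coefficient of variation among mAktDKO mice had a median of 6.04%, from 0.479% for Dlst to 35.3% for Pdk4. Among control mice the median was 8.84%, and the highest value was 43.2% for Idh2. The control mice were not alike: control mouse 3 was the highest of the 6 mice for 15 genes, control mouse 2 for 13 and control mouse 4 for 0. Among the mAktDKO mice, mouse 2 was the lowest of the 6 mice for 16 genes. The median log2 ratio to the control mean was -0.23, -0.23 and -0.17 in the mAktDKO mice and 0.052, 0.063 and -0.11 in the control mice. On the heat map of the 34 genes, the control mouse with the lowest levels therefore stood between the other control mice and the mAktDKO group.

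**Figure D2:**
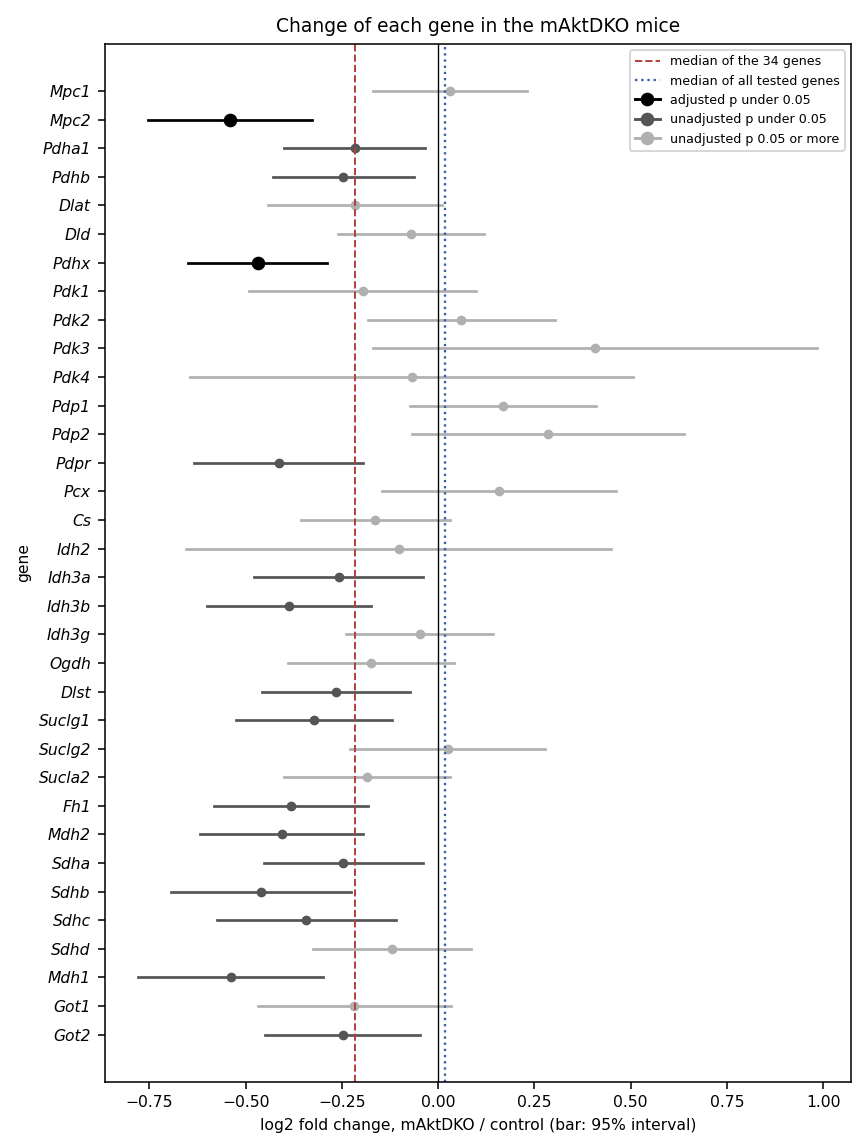
Log2 fold change of each gene between mAktDKO and control mice (points) with its 95% interval (bars) from edgeR's quasi-likelihood fit. Black points passed an adjusted p of 0.05, dark grey points an unadjusted p of 0.05, and light grey points neither. The dashed line is the median of the 34 genes (-0.22) and the dotted line that of all tested genes (0.017).

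Of the 2 subunits of the pyruvate carrier, Mpc2 fell and Mpc1 did not pass any threshold. Mpc2, at chr1:165460637-165481214 of mm10 on the plus strand with 5 exons, had 106, 89.2 and 97.4 CPM in mAktDKO muscle and 149, 147 and 130 CPM in control muscle. The groups did not overlap, with 97.5 ± 8.41 CPM (SD, n = 3) against 142 ± 10.8 CPM (SD, n = 3). Its log2 fold change was -0.54 (SE 0.094, 95% interval -0.75 to -0.33, adjusted p = 0.0467 in edgeR), a change in level of -31.3%. Mpc1, the partner that forms the carrier together with Mpc2, had 147, 159 and 160 CPM against 147, 167 and 142 CPM. Here the groups overlapped fully, and the log2 fold change was 0.031 (95% interval -0.17 to 0.23, adjusted p = 0.853 in edgeR, and -0.018 to 0.10 over the mice left out). Within each mouse, the log2 ratio of Mpc1 to Mpc2 was 0.47, 0.83 and 0.72 in the mAktDKO mice and -0.023, 0.19 and 0.13 in the control mice. This ratio needs no scaling between mice, and its groups did not overlap. The difference was 0.57 (two-sided exact permutation test, p = 0.1, the smallest that 3 mice against 3 allow, and 0.35 after adjustment over the 7 ratios compared). Per kilobase of transcript, Mpc1 and Mpc2 stood at 159 ± 13.8 and 138 ± 10.6 CPM per kilobase in the control mice and at 162 ± 7.77 and 95.2 ± 8.2 in the mAktDKO mice (SD, n = 3). A predicted gene, Gm37860, overlaps Mpc2 on the same strand, and its part in the Mpc2 counts was not tested.

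All 5 genes of the PDH complex had lower means in the mAktDKO mice (47.5% of all genes had a log2 fold change below 0). Of the 5, Pdhx alone fell at the adjusted p of 0.05, as 0.915% of all genes did. Pdhx encodes the E3-binding protein that holds dihydrolipoamide dehydrogenase on the core of the complex. At chr2:103021075-103073513 on the minus strand, with 11 exons, it had 58.1, 56.3 and 56.9 CPM in mAktDKO muscle and 76.1, 85.4 and 75.5 CPM in control muscle. The mAktDKO values lay close together and below all control values, with means of 57.1 ± 0.934 and 79.0 ± 5.54 CPM (SD, n = 3). The log2 fold change was -0.47 (SE 0.080, 95% interval -0.65 to -0.29, adjusted p = 0.0432 in edgeR), a change in level of -27.7%. Pdha1 and Pdhb encode the E1 subunits, of which the alpha subunit carries the sites of the PDH kinases. Pdha1, the most abundant of the 5 genes, had 678, 686 and 724 CPM against 812, 834 and 780 CPM, a log2 fold change of -0.22 (adjusted p = 0.152 in edgeR). Pdhb had 174, 173 and 182 CPM against 207, 225 and 196 CPM, a log2 fold change of -0.25 (adjusted p = 0.121 in edgeR). For both genes the groups were separate. Dlat, the E2 acetyltransferase of the core, had 212, 212 and 201 CPM against 226, 277 and 223 CPM, and its groups did not overlap either (log2 fold change -0.22, adjusted p = 0.217 in edgeR, and -0.11 without control mouse 3). Dld, the E3 subunit that also serves the other 2-oxo acid dehydrogenases, had 241, 235 and 241 CPM against 240, 274 and 239 CPM. Its groups overlapped, and its log2 fold change was -0.071 (95% interval -0.26 to 0.12, and -0.11 to -0.0056 over the mice left out).

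Levels per kilobase separated the 5 genes of the complex widely. In the control mice they were 284 ± 9.55 CPM per kilobase for Pdha1, 138 ± 9.37 for Pdhb, 98.7 ± 7.81 for Dld, 60.0 ± 7.43 for Dlat and 31.5 ± 2.21 for Pdhx (SD, n = 3). The order was the same in the mAktDKO mice, from 244 ± 8.59 for Pdha1 to 22.8 ± 0.372 CPM per kilobase for Pdhx. In both groups the ranges of neighbours in this order did not overlap.

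**Figure D3:**
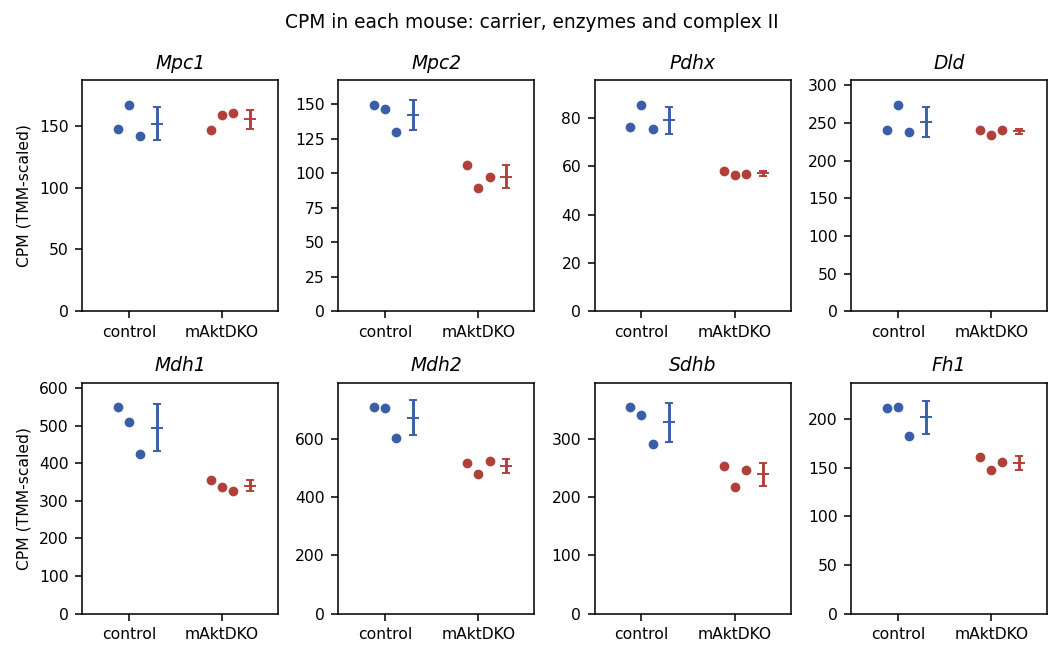
CPM (y axes, from 0) in each control mouse (blue) and each mAktDKO mouse (red) for 8 genes of the carrier, the PDH complex, the TCA cycle, complex II and the shuttle. The bars beside the points are the mean and SD of 3 mice. The groups do not overlap for Mpc2, Pdhx, Mdh1, Mdh2, Sdhb and Fh1, and they overlap for Mpc1 and Dld.

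The calls of Mpc2 and Pdhx were close to the threshold. When each mouse was left out in turn, the log2 fold change stayed between -0.61 and -0.48 for Mpc2 and between -0.50 and -0.41 for Pdhx. Both remained called without control mouse 2 (adjusted p = 0.0474 and 0.0325 in edgeR) and without control mouse 4. Neither was called without any one of mAktDKO mice 1, 2 or 3 or without control mouse 3, where the adjusted p reached 0.22 for both. In those 4 fits between 3 and 26 of all genes were called at 0.05, against 152 with all mice. Without control mouse 4, 388 of all genes were called, among them 6 of the 34, which were Fh1, Mdh1, Mdh2 and Sdhb besides Mpc2 and Pdhx. With library totals both calls were lost (adjusted p = 0.0611 for Mpc2 and 0.0788 for Pdhx in edgeR), while 210 of all genes were called. The number of the 34 lower at an unadjusted p of 0.05 was 9 with library totals. When each mouse was left out, it was between 10 (without control mouse 3) and 18.

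Of the 7 kinase and phosphatase genes of the PDH complex, 3 had a log2 fold change below the median of all tested genes and 4 above it. Pdpr alone had groups that did not overlap, and it was lower, as 16.6% of all genes were without overlap. Pdk4 had 433, 363 and 203 CPM in mAktDKO muscle and 272, 422 and 355 CPM in control muscle. The highest and the lowest of the 6 values were both in the mAktDKO group. The log2 fold change was -0.069 (SE 0.25, 95% interval -0.64 to 0.51, adjusted p = 0.890 in edgeR). The sign of this value turned with the mouse left out, from -0.30 to 0.17. Pdk2, the constitutive kinase isoform of muscle and the most abundant per kilobase of the 4, had 309, 334 and 362 CPM against 366, 300 and 298 CPM (log2 fold change 0.060, adjusted p = 0.756 in edgeR, and -0.014 to 0.16 over the mice left out, highest without control mouse 2). Pdk1 had 77.9, 80.5 and 87.0 CPM against 115, 83.8 and 82.1 CPM, with the highest value in control mouse 2. Its log2 fold change was -0.20, and -0.022 without control mouse 2. Pdk3 was near the lower end of the table, with 2.40 to 3.95 CPM (35 to 66 counts) in the mAktDKO mice and 1.89 to 2.79 CPM (27 to 37 counts) in control muscle. The log2 fold change was 0.41 with a wide interval of -0.17 to 0.98 (adjusted p = 0.343 in edgeR), and it was 0.23 without mAktDKO mouse 2 and 0.25 without control mouse 2.

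Pdp1 and Pdp2 encode the catalytic subunits of the PDH phosphatases, and Pdpr the regulatory subunit that lowers their activity. Pdpr had 87.6, 89.6 and 99.7 CPM in mAktDKO muscle and 136, 121 and 112 CPM in control muscle, and the groups did not overlap. Its log2 fold change was -0.41 (SE 0.097, adjusted p = 0.0626 in edgeR). The catalytic subunits stood on the other side of 0, without passing a test. Pdp1, the more abundant of them, had 82.8, 103 and 79.3 CPM against 81.6, 79.5 and 74.4 CPM (log2 fold change 0.17, 95% interval -0.074 to 0.41, adjusted p = 0.351 in edgeR, and 0.046 without mAktDKO mouse 2). Pdp2 had 6.34, 7.72 and 7.61 CPM against 6.85, 5.39 and 5.52 CPM (log2 fold change 0.29, adjusted p = 0.284 in edgeR). In both genes 1 mAktDKO mouse lay within the control range. The log2 ratio of Pdk4 to Pdk2 differed by -0.18 between the groups and that of Pdk4 to Pdp1 by -0.27, each with p = 0.6 in the exact permutation test (two-sided, adjusted p = 0.7 over 7 ratios). The ratio of Pdk4 to Pdk2 spread over SDs of 0.68 in the mAktDKO and 0.48 in the control mice, well above the difference of the means. Over the mice left out, the difference ran from -0.46 to 0.20 for Pdk4 to Pdk2 and from -0.54 to -0.026 for Pdk4 to Pdp1. Pyruvate carboxylase, Pcx, which makes oxaloacetate from pyruvate, had 58.5, 67.8 and 58.3 CPM against 57.1, 44.3 and 64.3 CPM (log2 fold change 0.16, adjusted p = 0.489 in edgeR, and from 0.019 without control mouse 3 to 0.28 without control mouse 4).

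**Figure D4:**
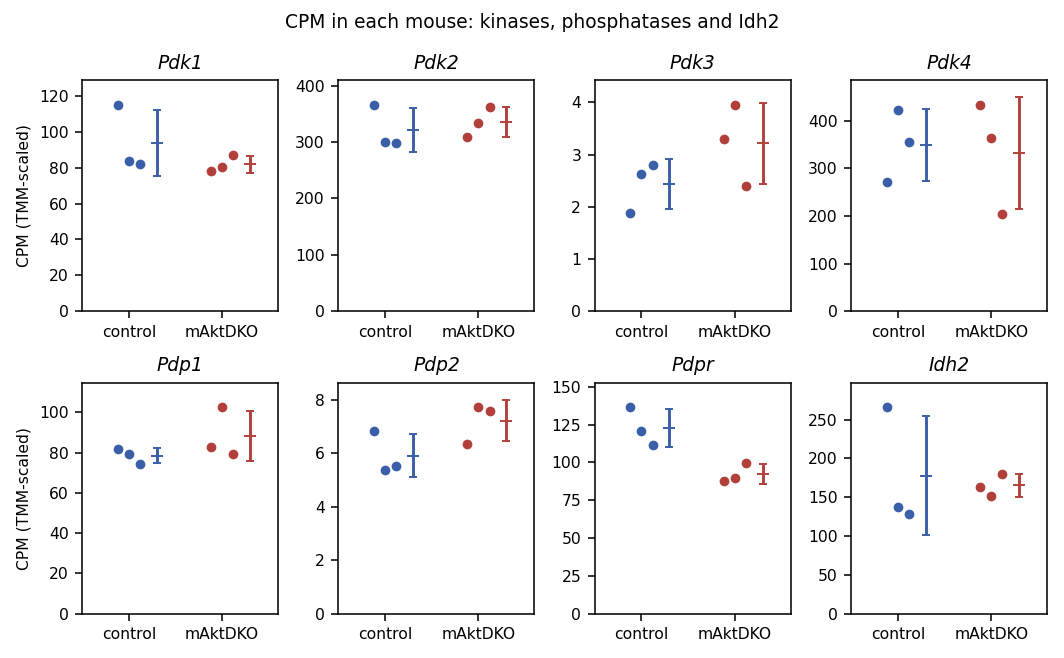
CPM (y axes, from 0) in each control mouse (blue) and each mAktDKO mouse (red) for the PDH kinases, the PDH phosphatase genes and Idh2. The bars are the mean and SD of 3 mice. Pdpr is the only gene of the 8 whose groups do not overlap, Pdk4 ranges from 203 to 433 CPM within the mAktDKO group, and Idh2 is high in control mouse 2.

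Of the 12 genes of TCA cycle enzymes, 11 had a log2 fold change below 0, 6 of them at an unadjusted p of 0.05 (13.1% of all genes were lower at that level), and 8 had groups that did not overlap (16.6% of all genes). None passed an adjusted p of 0.05 in edgeR, and in DESeq2 4 did, Fh1, Idh3b, Mdh2 and Suclg1, all lower, against 5.49% of all genes with an adjusted p. The median log2 fold change was -0.22. The 3 lowest were those of Mdh2, Idh3b and Fh1. Mdh2, the mitochondrial malate dehydrogenase at chr5:135778480-135790398, had 519, 481 and 522 CPM in mAktDKO muscle and 708, 706 and 604 CPM in control muscle. Its groups were separate, and its log2 fold change was -0.41 (SE 0.094, adjusted p = 0.0616 in edgeR). Fh1, the fumarase that hydrates fumarate to malate, lies at chr1:175600374-175625635 and had 162, 148 and 156 CPM against 211, 212 and 182 CPM. It was lower in every mAktDKO mouse, with a log2 fold change of -0.38 (SE 0.088, adjusted p = 0.0616 in edgeR).

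At the isocitrate step the 3 subunits of the NAD-linked enzyme did not have the same values. Idh3b had 242, 211 and 240 CPM against 321, 309 and 276 CPM (log2 fold change -0.39, adjusted p = 0.0684 in edgeR). Idh3a, the catalytic subunit, had 416, 414 and 441 CPM against 482, 569 and 469 CPM (log2 fold change -0.26, adjusted p = 0.152 in edgeR, and -0.17 without control mouse 3). Both were lower in every mAktDKO mouse, whereas Idh3g had 167, 163 and 184 CPM against 179, 186 and 166 CPM with overlapping groups (log2 fold change -0.048, 95% interval -0.24 to 0.14, and -0.12 to -0.013 over the mice left out). Nop56, a neighbour on the opposite strand, overlaps Idh3b. Idh2, the NADP-linked enzyme of the matrix, had 164, 152 and 181 CPM in mAktDKO muscle and 266, 138 and 129 CPM in control muscle. The mAktDKO values lay above those of control mice 3 and 4 and below that of control mouse 2. Its log2 fold change was -0.10 (SE 0.24) with all mice and 0.31 (adjusted p = 0.125 in edgeR) without control mouse 2, so this mouse set the sign. It lay between -0.29 and -0.044 when any other mouse was left out. The log2 ratio of Idh2 to Idh3a differed by 0.23 between the groups (exact permutation test, two-sided, p = 0.6). That difference was 0.60 without control mouse 2, 0.0022 without control mouse 3 and 0.091 without control mouse 4.

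At the later steps, the succinyl-CoA ligase gene Suclg1, which encodes the subunit common to both forms of the enzyme, had 168, 147 and 152 CPM against 192, 210 and 182 CPM. Its groups did not overlap, and its log2 fold change was -0.32 (adjusted p = 0.0856 in edgeR). Of its alternative partners, Sucla2, the ATP-forming subunit, had 435, 388 and 434 CPM against 447, 525 and 457 CPM (log2 fold change -0.19, adjusted p = 0.259 in edgeR, and -0.11 without control mouse 3). Suclg2, the GTP-forming subunit, had 43.9, 47.9 and 54.8 CPM against 54.1, 44.6 and 45.3 CPM (log2 fold change 0.025, 95% interval -0.23 to 0.28, and -0.080 to 0.12 over the mice left out). Sucla2 was the form that prevailed, at 214 ± 18.9 against 14.3 ± 1.56 CPM per kilobase in the control mice (SD, n = 3). The log2 ratio of Sucla2 to Suclg2 was 3.10 ± 0.178 in the mAktDKO and 3.31 ± 0.254 in the control mice (SD, n = 3), a difference of -0.21 with overlapping groups (exact permutation test, two-sided, p = 0.2), and of -0.34 without control mouse 2 and -0.087 without control mouse 3. For the 2-oxoglutarate dehydrogenase complex, Dlst had 238, 239 and 237 CPM against 288, 309 and 262 CPM, with separate groups (log2 fold change -0.26, adjusted p = 0.114 in edgeR). Ogdh, its first enzyme, had 820, 862 and 911 CPM against 1070, 950 and 907 CPM, and mAktDKO mouse 3 lay just above control mouse 4 (log2 fold change -0.17, adjusted p = 0.286 in edgeR, and -0.10 without control mouse 2). Cs, the citrate synthase often measured as an index of mitochondrial content, had 680, 678 and 722 CPM against 786, 816 and 727 CPM. The groups did not overlap, by a margin of a few CPM, and the log2 fold change was -0.16 (95% interval -0.36 to 0.030, adjusted p = 0.267 in edgeR).

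All 4 subunits of complex II had lower means in mAktDKO muscle (47.5% of all genes had a log2 fold change below 0), and the median of their log2 fold changes was -0.29. Sdhb, the iron-sulphur subunit at chr4:140961203-140979193, had 253, 216 and 246 CPM in mAktDKO muscle and 353, 341 and 290 CPM in control muscle. The groups were separate, and the log2 fold change was -0.46 (SE 0.10, 95% interval -0.69 to -0.23, adjusted p = 0.0598 in edgeR). Sdhc, a membrane anchor, had 204, 186 and 217 CPM against 285, 255 and 229 CPM (log2 fold change -0.34, adjusted p = 0.101 in edgeR and 0.0347 in DESeq2). Sdha, the flavoprotein that oxidises succinate, had 715, 675 and 768 CPM against 863, 897 and 797 CPM (log2 fold change -0.25, adjusted p = 0.149 in edgeR). Neither Sdha nor Sdhc had overlapping groups. Sdhd, the other anchor, had 141, 137 and 142 CPM against 155, 167 and 136 CPM, where control mouse 4 lay below all mAktDKO mice (log2 fold change -0.12, adjusted p = 0.431 in edgeR, and from -0.20 without control mouse 4 to -0.052 without control mouse 3). Per kilobase, Sdha and Sdhb stood at 294 ± 17.5 and 287 ± 29.4 CPM per kilobase in the control mice, a difference within their spread, and Sdhd and Sdhc at 124 ± 12.8 and 80.9 ± 8.91 (SD, n = 3). In the mAktDKO mice Sdha stood at 248 ± 16.1 and Sdhb at 209 ± 17.3 CPM per kilobase (SD, n = 3).

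The malate-aspartate shuttle carries the electrons of cytosolic NADH into the matrix. Mdh1, its cytosolic malate dehydrogenase at chr11:21556787-21572367 on the minus strand, had 357, 337 and 327 CPM in mAktDKO muscle and 549, 509 and 426 CPM in control muscle. The groups did not overlap, with 340.5 ± 15.1 against 495 ± 62.7 CPM (SD, n = 3). The log2 fold change was -0.54 (SE 0.11, 95% interval -0.78 to -0.30, adjusted p = 0.0506 in edgeR), which missed the threshold narrowly and passed it without control mouse 4 and under both other filters on low counts. Wdpcp on the opposite strand and Gm22990 on the same strand overlap Mdh1, and their part in its counts was not tested. The difference in level was -31.2% for Mdh1 and -24.6% for the mitochondrial Mdh2. The log2 ratio of Mdh1 to Mdh2 was -0.54, -0.51 and -0.67 in the mAktDKO mice and -0.37, -0.47 and -0.50 in the control mice. These ranges did not overlap but nearly touched, with a difference of -0.13 (exact permutation test, two-sided, p = 0.1, adjusted p = 0.35), and of -0.078 without mAktDKO mouse 3. The aspartate aminotransferases had 336, 306 and 334 CPM against 424, 390 and 321 CPM for the cytosolic Got1, and 373, 409 and 410 CPM against 497, 485 and 433 CPM for the mitochondrial Got2. Got2 was separate between the groups (log2 fold change -0.25, adjusted p = 0.141 in edgeR), and Got1 overlapped (log2 fold change -0.22, adjusted p = 0.257 in edgeR, and -0.13 without control mouse 2). Their ratio differed by 0.038 (exact permutation test, two-sided, p = 0.7), and by -0.030 to 0.10 over the mice left out.

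**Figure D5:**
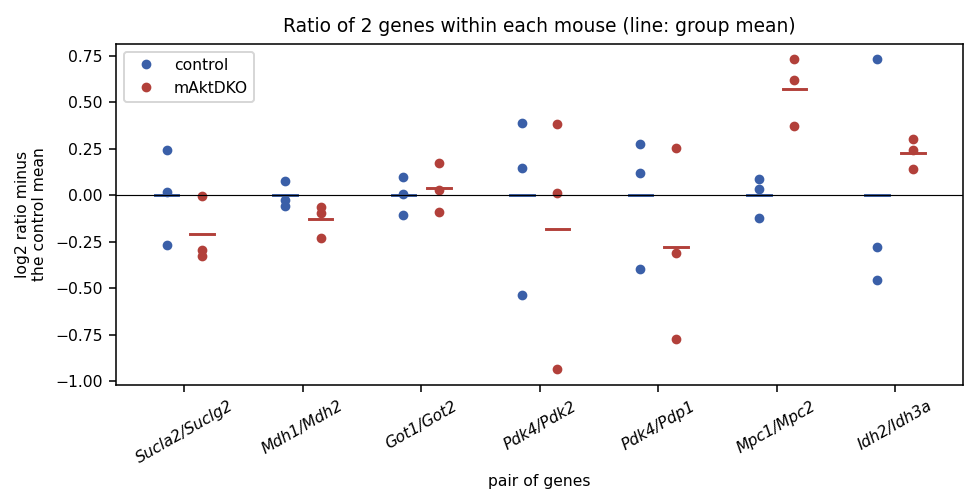
Log2 ratio of the CPM of 2 genes within each mouse, minus the control mean of that ratio (y axis), for 7 pairs (x axis) in control mice (blue) and mAktDKO mice (red); short lines are group means. The groups are separate for Mpc1/Mpc2 (difference 0.57) and for Mdh1/Mdh2 (difference -0.13), and they overlap for the other 5 pairs.

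Ordered by CPM per kilobase in the control mice, the 34 genes ran from Mdh2 at 462 ± 40.9 through Sdha, Sdhb, Pdha1 (284 ± 9.55), Cs (265 ± 15.4), Ogdh (236 ± 20.5) and Mdh1 (233 ± 29.5) down to Pdk3 at 1.15 ± 0.228 and Pdp2 at 1.04 ± 0.142 (SD, n = 3). Mdh2 stood clear of the next gene, and from Sdha to Mdh1 the ranges of neighbours overlapped. Mdh2 was first in both groups, and Pdk3 and Pdp2 were last in both. From control to mAktDKO mice the places that moved by 3 or more were those of Mpc2 (15 to 20), Idh3b (10 to 14), Mdh1 (7 to 10), Sdhb (3 to 6) and Dlst (20 to 23) downwards, and of Mpc1 (13 to 9) and Pdk4 (22 to 19) upwards. Pdk4 rose in place only. Its mean was 100 ± 21.6 CPM per kilobase in the control mice and 95.6 ± 33.7 in the mAktDKO mice (SD, n = 3). Next to it in the mAktDKO mice stood Mpc2, Idh2 and Dld, at 95.2, 94.7 and 93.9 CPM per kilobase, within that spread.

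The other genes of the pathway were counted by lists. Of the 6 genes of lactate and pyruvate supply, 6 were lower and 5 had an unadjusted p under 0.05 (for this and the next lists, 47.5% of all genes were below 0 and 13.1% were lower at that p). The median of their log2 fold changes was -0.40, and 0 were called at an adjusted p of 0.05 in edgeR. The smallest p was that of Ldhd, the D-lactate dehydrogenase, with 22.9, 21.6 and 23.2 CPM against 29.0, 31.2 and 29.5 CPM (log2 fold change -0.41, adjusted p = 0.0539 in edgeR). Ldhd passed 0.05 in DESeq2 (adjusted p = 0.027) and in edgeR under both other filters on low counts (adjusted p = 0.0443 and 0.0488). Of the 4 assembly factors of succinate dehydrogenase, 4 were lower and 3 had an unadjusted p under 0.05, and Sdhaf2, which helps attach FAD to Sdha, showed a log2 fold change of -0.24 (adjusted p = 0.172 in edgeR). Of the 3 genes that make or attach lipoate, the cofactor of Dlat and Dlst, 0 had an unadjusted p under 0.05, and the smallest p was that of Lipt2 (log2 fold change -0.22, adjusted p = 0.568 in edgeR, and -0.34 to -0.095 over the mice left out). Of the 7 carriers of cycle intermediates and genes of the glycerol phosphate shuttle, 4 were lower and 2 had an unadjusted p under 0.05. Slc25a12, the aspartate-glutamate carrier of the malate-aspartate shuttle, had 365, 353 and 365 CPM against 466, 485 and 411 CPM (log2 fold change -0.33, adjusted p = 0.0805 in edgeR and 0.0129 in DESeq2).

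Among 12 enzymes that feed or drain the cycle, 7 were lower and 5 higher, with 2 in each direction at an unadjusted p under 0.05, which is near the shares of all genes (13.1% lower and 11.4% higher). The smallest p was that of Gpt, the cytosolic alanine aminotransferase that turns pyruvate into alanine, with 12.5, 11.8 and 12.2 CPM against 25.0, 20.2 and 15.6 CPM (log2 fold change -0.74, adjusted p = 0.0573 in edgeR and 0.00379 in DESeq2). Among 7 related 2-oxo acid dehydrogenase genes 5 were lower, and Bckdk, the kinase of the branched-chain complex, showed a log2 fold change of -0.34 (adjusted p = 0.0684 in edgeR and 0.0192 in DESeq2). Of 6 genes of ketone and acetate entry 5 were lower. The ketone body enzyme Bdh1 had 5.26, 9.34 and 9.18 CPM against 56.4, 20.0 and 12.2 CPM, with the highest value in control mouse 2. Its log2 fold change was -1.90 (adjusted p = 0.0807 in edgeR) and -1.02 without that mouse. For comparison, 35 of 36 subunits of complex I were lower (median -0.37 on the log2 scale), and 17 of 18 fatty acid oxidation enzymes (median -0.24). Of the complex I subunits, 9 were lower at an adjusted p of 0.05 in edgeR and 32 at an unadjusted p of 0.05. In 30 of them the mAktDKO values all lay below the control values. For the fatty acid oxidation enzymes these counts were 1, 9 and 8, and the shares of all genes were 0.915%, 13.1% and 16.6%.

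Of 10 transcription factors known to act on Pdk4 or on mitochondrial genes, 6 were lower and 4 higher, and 1 in each direction had an unadjusted p under 0.05 (13.1% lower and 11.4% higher among all genes). Esrra was the lower one and fell at an adjusted p of 0.05, as 0.915% of all genes did. Yy1 was the higher one, with 34.3, 36.8 and 36.8 CPM against 29.3, 31.5 and 30.7 CPM (log2 fold change 0.24, adjusted p = 0.130 in edgeR). Esrra encodes the estrogen-related receptor alpha, which activates genes of oxidative metabolism. It lies at chr19:6910977-6921813 and had 53.0, 46.9 and 46.0 CPM in mAktDKO muscle and 86.1, 72.5 and 68.7 CPM in control muscle. The groups did not overlap, and the log2 fold change was -0.64 (SE 0.11, adjusted p = 0.0396 in edgeR, and 0.0573 with library totals). The call was kept without control mouse 2 (adjusted p = 0.0314 in edgeR) or 4 and lost without any one of the other 4 mice, where the adjusted p reached 0.22. Ppargc1a, the coactivator that works with this receptor, had 81.9, 54.7 and 89.3 CPM against 59.2, 68.0 and 64.0 CPM (log2 fold change 0.24, adjusted p = 0.382 in edgeR, and from 0.085 without mAktDKO mouse 3 to 0.43 without mAktDKO mouse 2), and the groups overlapped. Foxo1 had 43.8, 50.0 and 53.7 CPM against 44.4, 49.7 and 61.1 CPM (log2 fold change -0.073, adjusted p = 0.754 in edgeR, and from -0.17 without control mouse 2 to 0.062 without control mouse 4), which is the level of its RNA and not of its activity.

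The bases before the start sites were read for letters of known binding sites. RefSeq windows of 250 bases before to 50 bases after the start (GRCm38) were at hand for 31 of the 34 genes and compared with 32851 windows of all genes, on both strands. The GC box GGGCGG occurred in 21 of the 31 genes (67.7%) and in 38.2% of all 27025 genes with a window. For these letters, all genes are those with a window, tested in this muscle or not, and they were not matched for G and C. The element of the estrogen-related receptors, TCAAGGTCA, occurred in 1 of the 31 (Sdhd) and in 0.466% of all genes, and its shorter form AAGGTCA, which lies within it, in 3 (Ogdh, Sdhd and Got1) and in 5.38%. The ETS letters CCGGAAG occurred in 6 of the 31 and in 9.93% of all genes, the NRF1 core GCGCATGC in 2 and in 3.05%, and the YY1 letters AAGATGGC in 1 and in 3.19%. The FoxO letters GTAAACA occurred in 0 of the 31, Pdk4 included, and in 4.05% of all genes, which says only that these letters are not in these windows. The 100 bases before the start of 3 genes are shown, 5′ to 3′ on the strand of the gene. They are Pdhx, which fell, Fh1, which was lower in every mAktDKO mouse, and Suclg2, whose interval spanned 0. All 3 stretches lie outside annotated exons, at chr2:103073514-103073613, chr1:175625636-175625735 and chr6:95718847-95718946 on the minus strand, and capitals mark GC boxes read on either strand.
Pdhx: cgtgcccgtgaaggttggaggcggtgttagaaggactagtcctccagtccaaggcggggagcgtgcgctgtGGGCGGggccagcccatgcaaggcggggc
Fh1: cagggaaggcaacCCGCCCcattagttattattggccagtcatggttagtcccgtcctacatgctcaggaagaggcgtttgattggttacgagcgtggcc
Suclg2: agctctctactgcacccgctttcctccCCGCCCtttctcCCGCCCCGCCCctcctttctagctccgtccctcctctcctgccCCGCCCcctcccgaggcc
The stretches of Pdhx and Fh1 hold 1 GC box each and that of Suclg2 holds 4, of which a pair overlap, so the box stands before genes with and without a lower level in the mAktDKO mice. G and C make up 69.0%, 54.0% and 71.0% of the bases of Pdhx, Fh1 and Suclg2.

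Markers of fibre and cell types were summed in each mouse, and of 8 lists the fast fibre list alone had groups that did not overlap. Of all genes, 16.6% were lower and 14.6% higher without overlap between the groups. At an unadjusted p of 0.05, 4 of 10 fast fibre markers were lower (13.1% of all genes). Higher at that p (11.4% of all genes) were 4 of 5 adipocyte markers, whose median log2 fold change was 1.04, and 3 of 5 macrophage and leukocyte markers. So were 2 of 5 fibroblast, 2 of 5 red blood cell, 2 of 6 slow fibre, 1 of 4 Schwann cell and 1 of 5 endothelial markers. Of 10 fast fibre markers 10 had a log2 fold change below 0, 6 of them without overlap. Their summed level was 111200 to 122700 CPM in mAktDKO muscle and 126300 to 136600 CPM in control muscle. Myh4, the most abundant of the 10, had 49890, 47010 and 52920 CPM against 49200, 55530 and 46990 CPM, with overlapping groups. Its log2 fold change was -0.018 (SE 0.12, adjusted p = 0.944 in edgeR), with an interval of -0.30 to 0.26. The paper reports lower Myh4 by RT-PCR in fast-twitch muscle of older mAktDKO mice. Of 5 fibroblast markers 5 were above 0, 2 of them without overlap, with sums of 18270 to 21720 CPM against 7278 to 18390 CPM, and of 5 adipocyte markers 5 were above 0, 1 of them without overlap, with sums of 149 to 232 CPM against 128 to 156 CPM. Of 6 slow fibre markers 5 were above 0, 0 of them without overlap, and the sums overlapped at 426 to 914 CPM against 363 to 580 CPM. Of 5 macrophage and leukocyte markers 5 were above 0, 3 of them without overlap, and their sums (76.7 to 92.6 against 56.0 to 76.7 CPM) met at the edge, where control mouse 4 lay just above mAktDKO mouse 3. Of 4 Schwann cell markers 4 were above 0, 2 of them without overlap, with overlapping sums of 314 to 400.5 against 249 to 323 CPM. Of 5 red blood cell markers 5 were above 0, 2 of them without overlap, with overlapping sums of 150 to 320 against 114 to 168 CPM, and of 5 endothelial markers 3 were above 0, 0 of them without overlap, with sums of 428 to 507 against 366 to 473 CPM. Of all these markers only the haemoglobin gene Hbb-bs was at 0 counts in any mouse. It had 0 counts in all 3 control mice and 370, 154 and 146 counts in the mAktDKO mice, and it was the only marker called at an adjusted p of 0.05 (0.018 in edgeR). The other beta-globin gene of the list, Hbb-bt, had 364, 271 and 142 counts in the mAktDKO mice and 189, 180 and 119 in the control mice. Its groups overlapped (adjusted p = 0.318 in edgeR), as did those of Hba-a1 and Alas2, while those of Hba-a2 did not. Why Hbb-bs alone had no counts in the control mice was not tested. The part of these markers in the lower levels of the 34 genes was not tested, and in bulk RNA fewer fibres of a type and less RNA per fibre cannot be told apart.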

How the data were processed

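EDL muscles of 3 mAktDKO mice and 3 control floxed mice, 50 weeks old, were compared by RNA sequencing. The authors sequenced strand-specific libraries depleted of ribosomal RNA with paired-end 37 bp reads and made estimated counts per gene, not scaled between mice, and these expected counts were deposited. The submitters' processing notes name STAR 2.6.1b, RSEM 1.3.1 and mm10. Whether counting used the strand is not given in the sources used here. RSEM shares a read out among similar genes, and fractional values made up 3.36% to 4.09% of each column.

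Counts were rounded to whole numbers, filtered with filterByExpr (minimum count 10), normalised by the TMM method, and compared by quasi-likelihood tests of edgeR 4.0.16 in R 4.3.3, with Benjamini-Hochberg adjustment over all 12892 tested genes. Thresholds were an adjusted p of 0.01, from the study, and of 0.05. Intervals are 95% intervals of this fit. Log2 ratios of gene pairs use log2 CPM with a prior count of 2 and an exact permutation test. The steps were tested on simulated data. Lengths are those of the longest principal transcript of GENCODE for GRCm38 (mm10), and promoter windows are from RefSeq. Alternatives were DESeq2 1.42.0, DESeq2 size factors, upper-quartile scaling, library totals, other filters, another prior count and leaving out each mouse. The members and lists were chosen with earlier results of these data known. Every member is described. Full values are given for members past an adjusted p of 0.05 and, in each role, for up to 3 of smallest p and the most abundant one. Of the other lists, counts and the gene of smallest p are given. Ppargc1a, Foxo1 and Yy1 were added after their values were seen, as were the genes named for control mouse 2 and the single genes named with the marker lists.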

Additional observations from a re-analysis of the deposited data

How the results depend on the processing

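No paired analysis was possible because numbers 2 to 4 stand on the columns of the control mice whereas the labels number these mice 1 to 3. The number of the 34 genes called at an adjusted p of 0.05 was 2 with TMM, DESeq2 size factors and upper-quartile scaling, 0 with library totals, 3 with at least 10 counts in every mouse, 4 without a filter and 10 in DESeq2, and 0 to 6 when each mouse was left out. Of all genes, the same fits called 152 with TMM, 149 with DESeq2 size factors, 120 with upper-quartile scaling, 210 with library totals, 264 with at least 10 counts, 381 without a filter, 786 in DESeq2 and 3 to 388 when each mouse was left out. At an adjusted p of 0.01, DESeq2 called 8, and 341 of all genes against 3 in edgeR. With library totals 9 genes were lower and 2 higher at an unadjusted p of 0.05, and the median log2 fold change was -0.078, while that of all genes moved up alike, from 0.017 to 0.16. When each mouse was left out, 10 to 18 were lower and 0 to 2 higher at that level, the 2 without control mouse 2, and the median was -0.29 to -0.19.

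With that shift of all genes, the sign under library totals turned for Dld (0.065), Pdk4 (0.080), Idh2 (0.041), Idh3g (0.087), Sdhd (0.017) and Foxo1 (0.059). When each mouse was left out, the sign turned for Mpc1 (-0.018 to 0.10), Pdk2 (-0.014 to 0.16), Pdk4 (-0.30 to 0.17), Idh2 (-0.29 to 0.31) Suclg2 (-0.080 to 0.12) and Foxo1 (-0.17 to 0.062), and for the log2 ratios of Got1 to Got2 (-0.030 to 0.10) and of Pdk4 to Pdk2 (-0.46 to 0.20). None of these had passed a threshold. The alternatives for Foxo1, Ppargc1a and Yy1 were added after seeing the data. With 3 mice a group an exact permutation test cannot go below 0.1. The lowest count of any of the 34 genes in a mouse was 27, in Pdk3.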
